A study of Mus musculus with 6 samples.

Results

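Cmpk2 and Rsad2 are adjacent genes on mouse chromosome 12 that point away from each other, and their transcripts were examined in mouse embryonic fibroblasts (MEFs) with and without the mitochondrial protease YME1L. They are 2 of 51499 loci in the deposited count table, found by splitting the locus names at commas; each is a locus of its own, not merged with another gene. The pair was chosen because both transcripts were higher in Yme1l-/- cells while most of chromosome 12 was lower. The genotype differences of the pair are therefore given as a description, without a test.

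RNA sequencing was carried out on 3 cultures of wild-type (WT, Yme1l fl/fl) MEFs and 3 cultures of Yme1l-/- MEFs, all from SV40-immortalized cells of floxed animals. According to the study's methods, single clones were grown out after Cre transduction and genotyped, so a difference between clones and the loss of YME1L cannot be told apart. How many clones the 3 cultures of a genotype came from is not given in the sources used here, so SD, SE and p-values cover the spread between cultures, which may share a clone. Yme1l1 transcripts were 6327, 6292 and 5968 fragments in WT and 1327, 1963 and 2067 in Yme1l-/- cultures, which did not overlap. Counted fragments per library ranged from 33180867 to 49351107. Of 11 fibroblast markers 9 were tested, of which 7 were called lower and 1 higher in Yme1l-/- cells (all tested loci 34.1% and 33.6%); their summed level was 11000 to 11500 CPM (fragment counts relative to the TMM-scaled library size) in WT and 6720 to 7210 CPM in Yme1l-/-, and the fibroblast markers Thy1 and Lum reached at most 6 and 11 fragments. Of 7 macrophage markers, Ptprc reached at most 1 fragment and Adgre1 none, and the 2 that could be tested, Cd68 and Cd14, were called higher at log2 fold changes of 1.04 and 0.37. Csf1r, Itgam and Lyz2, too low to test, had at most 5 fragments in any WT culture and 8 to 29 in the Yme1l-/- cultures. The summed level of the 7 was 4.17 to 4.52 CPM in WT and 7.38 to 8.01 CPM in Yme1l-/-. Of 4 endothelial markers only Kdr could be tested and was called higher (log2 fold change 0.72), Pecam1 had 0, 0 and 1 fragments in WT and 3, 6 and 10 in Yme1l-/-, Tek had 6, 2 and 2 against 3, 1 and 2, Cdh5 had 0, 5 and 1 against 2, 0 and 0, and the list summed to 0.888 to 1.44 CPM and 1.67 to 2.00 CPM. Of 4 epithelial markers, Krt18 (1048, 1086 and 1012 fragments in WT, 0, 1 and 3 in Yme1l-/-) and Epcam (50, 42 and 35, then 2, 5 and 5) were tested and called lower, both having passed the filter on low counts through the WT cultures alone, and the list summed to 32.9 to 34.9 CPM and 0.294 to 0.657 CPM. The part of these lists in the results was not tested.

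CMPK2 is a nucleoside monophosphate kinase of mitochondria that phosphorylates CMP, UMP and their deoxy forms, and it supplies deoxynucleotides for mitochondrial DNA (mtDNA) synthesis. RSAD2, also called viperin, is a radical SAM enzyme with an iron-sulfur cluster that converts CTP into ddhCTP, a chain-terminating nucleotide that blocks some viral polymerases. Both genes are interferon-stimulated genes (ISGs), transcribed in response to type I interferon, and they lie side by side in many vertebrates.

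In build GRCm38 (mm10), Rsad2 (ENSMUSG00000020641) occupied chr12:26442746-26456452 on the minus strand and Cmpk2 (ENSMUSG00000020638) chr12:26469204-26479837 on the plus strand. By these coordinates the 5′ ends faced each other across 12751 bases. The main transcript of Cmpk2 had 5 exons and 3200 bases, and that of Rsad2 had 6 exons and 3782 bases. Sequence upstream of each gene is shown because binding sites of interferon-activated factors often lie there. Sequences are from RefSeq (GRCm38.p6) and run 5′ to 3′ along the gene, ending before the earliest annotated start. For Cmpk2, RefSeq starts the gene upstream of the coordinates above, so the printed stretch has 152 of the 300 bases of its window and does not reach the start given above. Capitals mark matches to the interferon-stimulated response element (ISRE) core, the interferon regulatory factor (IRF) core or the gamma-activated site (GAS).
Rsad2, chr12:26456453-26456702, minus strand: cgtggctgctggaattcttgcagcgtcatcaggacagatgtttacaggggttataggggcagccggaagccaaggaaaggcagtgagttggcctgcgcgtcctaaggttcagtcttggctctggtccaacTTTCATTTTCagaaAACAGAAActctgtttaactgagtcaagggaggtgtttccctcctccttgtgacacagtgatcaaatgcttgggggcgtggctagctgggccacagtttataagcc
Cmpk2, chr12:26468965-26469116, plus strand: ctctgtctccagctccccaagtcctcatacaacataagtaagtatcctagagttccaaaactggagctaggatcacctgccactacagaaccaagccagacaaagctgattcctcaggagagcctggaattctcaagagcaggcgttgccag

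Upstream of Rsad2, an ISRE core and an IRF core were found close together, whereas the Cmpk2 window held no match. The window of Cmpk2 is placed on a later start than the earliest that RefSeq gives, so 152 of its bases lie before the earliest start and the search covered no sequence further upstream. On both strands of windows of 300 bases, from 250 before to 50 after the start used in the promoter table, 5 motifs were searched: the ISRE core (GAAA, any 2 bases, GAAA), the IRF core AANNGAAA, the GAS site TTCNNNGAA, the NF-kB site and TATAAA. The ISRE core of Rsad2 lay on the opposite strand at -120 to -111 from the start, overlapping an IRF core at -120 to -113, and another IRF core lay on the gene's own strand at -106 to -99. A TATAAA match lay on the opposite strand at -10 to -5. Of 32851 promoter windows, 3.44% held the ISRE core, 23.9% the IRF core, 8.30% the GAS site, 8.46% the NF-kB site and 13.6% TATAAA. In the early ISG list used here, 5 of 12 genes with a window held the ISRE core and 9 the IRF core. The GAS site was held by 1 of them, the NF-kB site by 4 and TATAAA by 2. A match describes letters in this window, and these data hold no measurement of binding.

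Cmpk2 was a rare transcript in WT cells and stood clearly higher in every Yme1l-/- culture. Cmpk2 had 42, 52 and 33 fragments in the WT cultures and 172, 261 and 261 in the Yme1l-/- cultures, which is 1.27, 1.59 and 1.01 CPM against 4.92, 5.18 and 5.12 CPM. The Yme1l-/- cultures lay close together and all stood above every WT culture, the lowest of them 3.09 times the highest WT value. Mean CPM was 1.29 ± 0.289 for WT cultures and 5.07 ± 0.138 for Yme1l-/- cultures (SD, n = 3). The fitted log2 fold change was 1.97 with an SE of 0.16, which is 3.93-fold. Because bulk RNA was measured, more cells with the transcript and more transcript per cell cannot be told apart.

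Rsad2 was also higher in Yme1l-/- cells, by less and with wider spread. Rsad2 had 51, 89 and 67 fragments in WT and 101, 200 and 215 in Yme1l-/- cultures, which is 1.54, 2.72 and 2.05 CPM against 2.89, 3.97 and 4.22 CPM. The groups just failed to overlap, with the lowest Yme1l-/- culture 1.06 times the highest WT culture. Mean CPM was 2.10 ± 0.591 for WT cultures and 3.69 ± 0.708 for Yme1l-/- cultures (SD, n = 3). The fitted log2 fold change was 0.82 with an SE of 0.21, which is 1.76-fold. For both genes, replicate 2 was the highest WT culture and replicate 1 the lowest Yme1l-/- culture.

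Of all 13867 tested loci, 33.6% were called higher, 34.1% lower and 67.7% in either direction. In 35.9% of tested loci all Yme1l-/- cultures stood above all WT cultures, as they did for both genes. Since the pair was chosen on this contrast, no call is given for it and nothing is read from that order. A larger log2 fold change than that of Cmpk2 was seen at 524 tested loci (3.78%), and a larger one than that of Rsad2 at 1679 (12.1%). Both stayed low transcripts, Cmpk2 above 16.6% of tested loci by CPM in WT and 27.7% in Yme1l-/-, and Rsad2 above 20.6% and 25.1%.

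**Figure D1:**
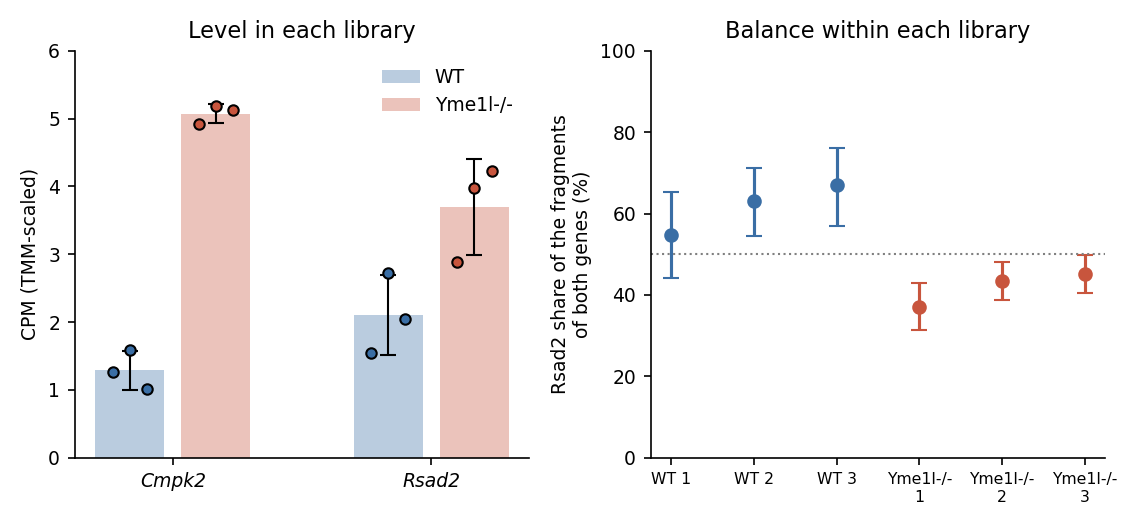
Level of Cmpk2 and Rsad2 in each of the 6 libraries, in CPM scaled by TMM factors, with points for cultures, bars for means and error bars for SD (left), and the Rsad2 share of both genes' fragments with its 95% Clopper-Pearson interval (right, dotted line at equal fragments). Cmpk2 sits between 1.01 and 1.59 CPM in WT and between 4.92 and 5.18 CPM in Yme1l-/-, while for Rsad2 the 2.89 CPM of a Yme1l-/- culture lies just above the 2.72 CPM of a WT culture.

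Between cultures, the coefficient of variation of Cmpk2 CPM was 22.4% in WT and 2.72% in Yme1l-/-, and that of Rsad2 was 28.1% and 19.2%. Each rests on 3 cultures. Counting error alone would give 15.6% in WT and 6.7% in Yme1l-/- for Cmpk2, and 12.4% and 8.07% for Rsad2. The 2.72% lies below counting error, so no narrower spread of Cmpk2 in Yme1l-/- cells is read from it.

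The balance between both genes, which rests on the same values that chose the pair, shifted from Rsad2 towards Cmpk2 in Yme1l-/- cells. Rsad2 made up 54.8% (95% exact Clopper-Pearson interval 44.2 to 65.2), 63.1% (54.6 to 71.1) and 67.0% (56.9 to 76.1) of the fragments of both genes in the WT cultures. In the Yme1l-/- cultures it made up 37.0% (31.3 to 43.0), 43.4% (38.8 to 48.0) and 45.2% (40.6 to 49.8). Every WT share was above every Yme1l-/- share, and the intervals cover counting error only. Per kilobase of main transcript, the ratio of Rsad2 to Cmpk2 was 1.03, 1.45 and 1.72 in WT and 0.497, 0.648 and 0.697 in Yme1l-/- cultures. Levels per kilobase were 0.403 ± 0.0904 CPM for Cmpk2 and 0.556 ± 0.156 CPM for Rsad2 in WT, and 1.58 ± 0.0431 and 0.976 ± 0.187 CPM in Yme1l-/- (SD, n = 3). The authors' combined FPKM values, 1 per genotype, were 0.416 and 1.67 for Cmpk2 and 0.682 and 1.05 for Rsad2.

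Chromosome 12 as a whole was lower in Yme1l-/- cells. Its 511 tested loci had a median log2 fold change of -0.44 (interquartile range -0.75 to -0.11), against -0.00411 over all tested loci. The shift was alike in every Yme1l-/- culture, at -0.445, -0.442 and -0.449 against the WT mean. On this chromosome 325 loci (63.6%) were called lower and 60 (11.7%) higher, and 99 (19.4%) had a log2 fold change above 0. Set against the chromosome's median, the log2 fold change was 2.42 for Cmpk2 and 1.26 for Rsad2. Larger log2 fold changes than those of Cmpk2 and Rsad2 were seen at 10 (1.96%) and 36 (7.05%) of the 511 loci.

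**Figure D2:**
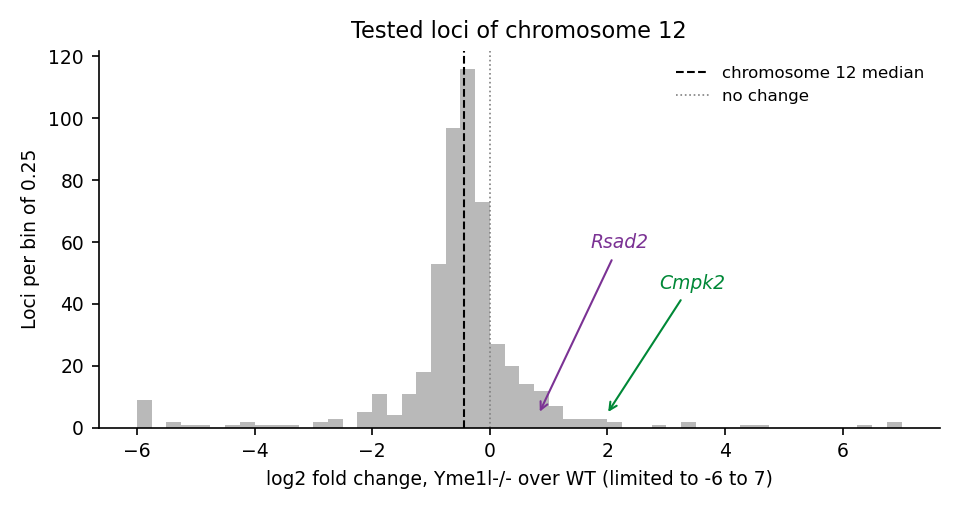
Distribution of log2 fold changes, Yme1l-/- over WT, for the 511 tested loci of chromosome 12, as loci per bin, with values beyond either end of the axis placed in the end bins. A dashed line marks the median and arrows mark both genes. The chromosome's median is at -0.44, and Rsad2 at 0.82 and Cmpk2 at 1.97 lie in its upper tail.

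The region around the pair was sparsely transcribed, and its tested genes moved in both directions. Within 200 kb lay 9 loci, of which 7 had no fragment in any library; the pseudogene Gm46344 had 14, 6 and 3 fragments in WT and 3, 12 and 2 in Yme1l-/- and was too low to test. The remaining locus, and the only 1 tested, was Rnf144a, which encodes an E3 ubiquitin ligase and lies 27492 bases from Rsad2. Rnf144a had 60, 62 and 65 fragments in WT and 6, 1 and 2 in Yme1l-/- cultures, so the nearest tested gene was lower in every Yme1l-/- culture. Mean CPM was 1.90 ± 0.0892 and 0.0768 ± 0.0825 (SD, n = 3). The fitted log2 fold change of Rnf144a was -4.76 ± 0.42 (SE). Rnf144a passed the filter on low counts through the WT cultures alone, so it had to differ, and the size of its fold rests on at most 6 fragments per Yme1l-/- library. 

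On the far side of Cmpk2, the nearest tested gene was Sox11, a transcription factor of neural and mesenchymal progenitors, 854427 bases away. Sox11 had 7, 8 and 9 fragments in WT and 1113, 1457 and 1413 in Yme1l-/- cultures. Its fitted log2 fold change of 6.90 ± 0.13 (SE) was the highest among called loci within 2 Mb, and that of Rnf144a the lowest. Sox11 passed the filter through the Yme1l-/- cultures alone, and its fold rests on at most 9 fragments per WT library. Within 2 Mb, 11 of 53 loci were tested, of which 2 were called higher, 6 lower and 3 neither, with a median of -0.403. With at least 10 counts required in every library, Sox11, Rnf144a and Gm16372 were not tested, and the other 5 calls remained. By comparison, 75.3% of tested chromosome 12 loci were called in either direction.

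The next genes outward changed by less. Id2, an inhibitor of basic helix-loop-helix factors, was at 0.24 ± 0.09 (log2 fold change ± SE; edgeR quasi-likelihood test, Benjamini-Hochberg adjusted p = 0.0374), a call lost when any of 4 cultures was left out. Kidins220, a scaffold of neurotrophin receptors, was at -0.39 ± 0.05 on the same scale. Beyond Sox11, and more than 2 Mb from the pair, the ribosomal protein gene Rps7 was at -0.46 ± 0.10 and Rnaseh1, the ribonuclease that removes RNA from RNA-DNA hybrids, at -0.62 ± 0.08. All 3 of these were called lower.

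**Figure D3:**
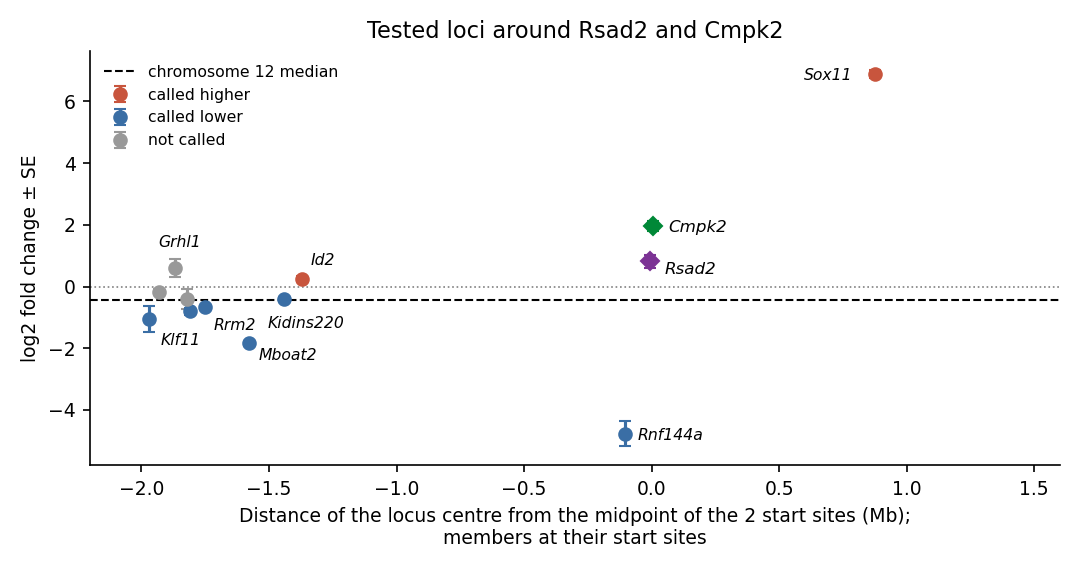
Log2 fold change, Yme1l-/- over WT, of the tested loci within 2 Mb of the pair against distance from the midpoint between both start sites, with error bars for the SE. Rnf144a at -4.76 and Sox11 at 6.90 flank the pair on either side, and 8 of the 11 tested neighbours lie below 0.

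Adjacent genes that point away from each other could be compared with the pair. For 1622 such pairs of tested loci, the facing edges of their positions were at most 20000 bases apart. A position can span several genes, so an edge need not be a start site, and untested genes in between were passed over. The median absolute difference in log2 fold change between partners was 0.377, and it was 1.15 for Cmpk2 and Rsad2. A larger difference was seen in 13.7% of pairs. The pair was chosen on this contrast, and the other pairs were not matched to its low level. Its place among them is therefore a description, without a test. Both partners were called higher in 334 pairs (20.6%), and both were at least 2-fold higher in 27.

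The kinases and synthases that share the substrates of CMPK2, or make the CTP used by viperin, were called at shares near those of all loci. Of 16 tested loci, 5 were called higher, 5 lower and 6 neither, where 33.6% of all tested loci were called higher and 34.1% lower, with a median log2 fold change of 0.00176 against -0.00411 over all tested loci. Nme4, the nucleoside diphosphate kinase of mitochondria, had a mean CPM of 10.7 ± 0.775 in WT and 31.6 ± 3.35 in Yme1l-/- (SD, n = 3). Nme4 thus had a log2 fold change of 1.56 ± 0.09 (edgeR quasi-likelihood test, Benjamini-Hochberg adjusted p = 4.64e-08), and was the only tested locus of this list that rose at least 2-fold. Slc25a33, a pyrimidine nucleotide carrier of the inner membrane, was called higher at 0.37 ± 0.09, while the related carrier Slc25a36 was called lower at -0.37 ± 0.06. The cytosolic counterpart Cmpk1 was called lower at -0.24 ± 0.06, and the uridine-cytidine kinase Uck2 at -0.60 ± 0.05. The CTP synthases Ctps and Ctps2 were not called, at 0.08 ± 0.04 and -0.02 ± 0.07, although Ctps was called higher with upper-quartile scaling (adjusted p = 0.012, edgeR).

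Of 9 cytosolic iron-sulfur assembly loci, which supply enzymes such as viperin with their clusters, 3 were called higher, 3 lower and 3 neither (median 0.112), again near the 33.6% and 34.1% of all tested loci. Ciao1, the targeting subunit of the assembly complex, was called higher at a log2 fold change of 0.33 ± 0.05, and Fam96a, which binds viperin in this pathway, was called lower at -0.82 ± 0.06. Of 6 loci encoding partners of viperin, 1 was called higher, 2 lower and 3 neither (median -0.0504), beside the same background. These were Hadha, of fatty acid oxidation, at 0.28 ± 0.04, and the signalling kinase Irak1 at -0.51 ± 0.05 and the membrane anchor Vapa at -0.24 ± 0.06.

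The mtDNA synthesis genes, to whose pathway CMPK2 supplies nucleotides, were called higher at 6 of 9 loci and lower at 1 (median 0.373), where 33.6% of all tested loci were called higher, 34.1% lower and 67.7% in either direction. Polrmt, the mitochondrial RNA polymerase, was at 0.75 ± 0.05, and Tfam, which packages mtDNA, was at 0.42 ± 0.05. Rrm2b, a ribonucleotide reductase subunit, was at 0.89 ± 0.07, and Polg, the polymerase itself, was the locus called lower, at -0.23 ± 0.05. None of the 9 reached 2-fold.

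Of 14 tested loci whose genes induce or carry the type I interferon signal, 10 were called higher and 4 lower, beside 33.6% and 34.1% of all tested loci. Their median log2 fold change was 0.604, against -0.00411 over all tested loci. Rises were seen at Irf7, which drives interferon transcription, at 2.57 ± 0.11, and at Stat2, a transcription factor activated by the interferon receptor, at 1.76 ± 0.08. Irf9, the DNA-binding partner of Stat2, was at 0.82 ± 0.05 in a locus merged with Rnf31. The interferon receptor chain Ifnar1, the kinase Tyk2, the DNA sensor Mb21d1 (cGAS) and the transcription factor Irf3 were called lower, between -0.24 and -0.17, the call of Tyk2 being lost under 7 alternatives. The interferon gene Ifnb1 had 1 fragment in all 6 libraries together and was not tested.

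Early ISGs, the class to which both members belong, did not all move the same way. Of 15 tested, 10 were called higher, 1 lower and 4 neither, beside 33.6% of all tested loci called higher, 34.1% lower and 67.7% in either direction. The median log2 fold change was 1.33, and 9 of the called genes were at least 2-fold higher. Mx1 and Mx2 passed the filter on low counts through the Yme1l-/- cultures alone and so had to differ; with at least 10 counts required in every library they were not tested, and 9 early ISGs were called. Ifi44 was at 5.17 ± 0.18 and Xaf1 at 4.11 ± 0.14, above Cmpk2, as were Usp18 and Oasl2, while Rtp4, at 1.92 ± 0.08, was close to it. Ifit2, which restrains translation of viral RNA, was called lower at -0.62 ± 0.06. Ifit1 was at 0.00 ± 0.08, Ifit3 at -0.34 ± 0.18, Oasl1 at -0.07 ± 0.12 and Ddx60 at 0.35 ± 0.15, none of them called. Under some alternatives, the replicate block among them, Ifit3 was called lower and Ddx60 higher. Members of the Ifit, Oas and Mx families share similar sequence, so fragments may be divided among them.

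**Figure D4:**
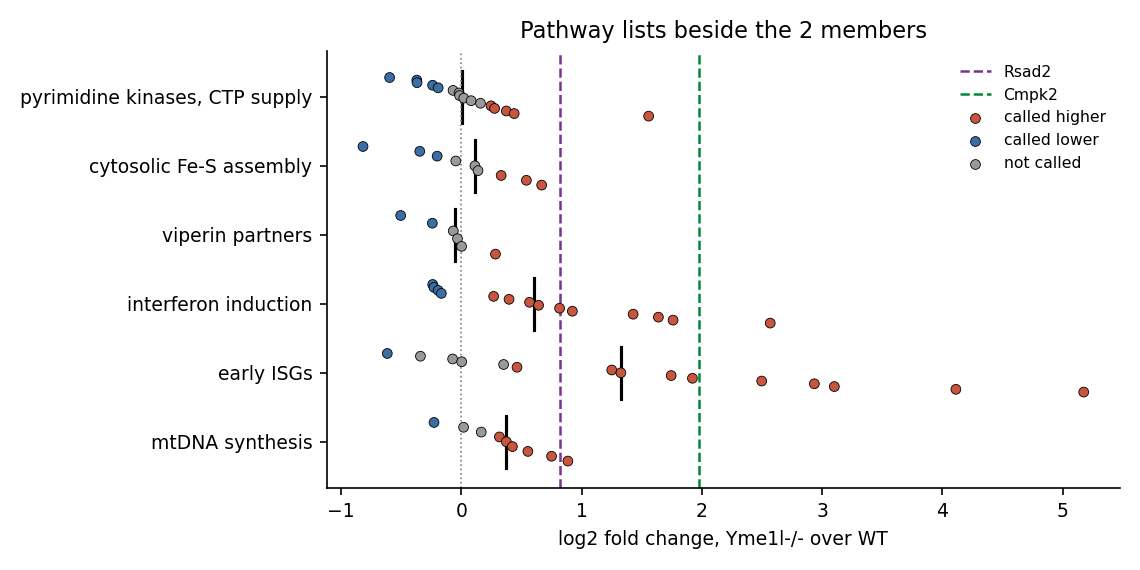
Log2 fold change, Yme1l-/- over WT, of every tested locus in 6 lists of related genes, coloured by call, with a bar at each list's median and dashed lines at Rsad2 (0.82) and Cmpk2 (1.97). The early ISGs run from -0.62 to 5.17, on both sides of the pair.

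The order of cultures seen in both members was also frequent among ISGs. WT replicate 2 was the highest WT culture for 9 of 15 early ISGs (60.0%) and for 31.8% of all tested loci. Other lists varied, with 55.6% of tested fibroblast markers and 16.7% of viperin partner loci, so this trait was not particular to ISGs. Both traits were counted apart, not jointly in the same locus. Yme1l-/- replicate 1 was the lowest Yme1l-/- culture for 14 of 15 (93.3%) and for 42.1% of all tested loci. WT replicate 2 also stood apart at the collagen gene Col3a1, with 9860 fragments against 2858 and 2974. Without this culture the log2 fold change was 2.15 for Cmpk2 and 1.04 for Rsad2, and 11 early ISGs were called, as with it.

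By their profile over the 6 libraries, Cmpk2 and Rsad2 were not each other's closest match. Likeness was measured over 11722 loci as the root mean square difference of centred log2 CPM. This measure includes the genotype difference on which the pair was chosen, so the order largely restates the unequal fold changes. Loci with little change can lie nearer to Rsad2 than Cmpk2 does. Whether both genes are regulated together was not tested. The loci closest to Cmpk2 were Spata13 (0.103), H2-Q7 (0.106), Arrdc4 (0.111), Tle6 (0.112) and Rhov (0.117), and Rsad2 came 1270th at 0.626. Rhov was near the floor, at a mean of 0.0914 CPM in WT and 0.453 CPM in Yme1l-/-. It passed the filter on low counts through the Yme1l-/- cultures alone. The loci closest to Rsad2 were Lama4 (0.0765), Nfatc4 (0.0847), Plscr4 (0.112), Adgrg6 (0.128) and Tmem140 (0.132), and Cmpk2 came 7645th. None of these 10 loci lay on chromosome 12.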

How the data were processed

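Poly(A) RNA of 6 MEF cultures was sequenced by the authors, mapped to mm10 with HISAT2 2.0.4, assembled with StringTie 1.3.3 on Ensembl annotation and compared with Cuffdiff 2.2.1. The deposited count table holds raw fragment counts for 51499 loci; how multiply mapped fragments were counted is not given in the sources used here. The deposited FPKM values are the authors' combined value per genotype; their fold changes, test statistics, p-values and q-values were not used. Loci passing filterByExpr (minimum count 10) were fitted in R 4.3.3 with edgeR 4.0.16 (limma 3.58.1; TMM scaling, quasi-likelihood test, two-sided, no covariates), with Benjamini-Hochberg adjustment over 13867 loci and calls at an adjusted p under 0.05. SE came from the fold change and test statistic. DESeq2 1.42.0 was an alternative. The fit was tested on simulated data. The members and lists were chosen with earlier results of these data known. Genes were named by rule: the members, Yme1l1, loci within 200 kb, the 3 nearest tested loci per side, the highest and lowest calls within 2 Mb, list genes, and the 5 most alike single-symbol loci per member. Positions are from the authors' table, gene structures from GENCODE M21 and promoters from RefSeq. Protein sequences were not used here, and 1 item of a list is not reported here by name.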

Additional observations from a re-analysis of the deposited data

How the results depend on the processing

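With 3 cultures per genotype and 33 to 261 fragments per library for the members, small differences could not be resolved. Leaving out each culture in turn gave log2 fold changes of 1.83 to 2.15 for Cmpk2 and 0.64 to 1.04 for Rsad2, and -1.32 to -1.02 for their difference; with chromosome medians removed they were 2.42 and 1.26. The chromosome 12 median was -0.4475 with RLE scaling, -0.3836 with upper-quartile scaling, -0.4478 with DESeq2 and -0.4142 without the filter, and ran from -0.4545 to -0.4351 with a culture left out. Of the neighbours within 2 Mb, 8 were called, 5 with at least 10 counts in every sample, where Sox11, Rnf144a and Gm16372 are not tested, and 6 to 8 with a culture left out. Replicate numbers did not pair the cultures (correlations of deviations 0.144, -0.0939 and 0.048, with replicate 1 alone matching its own number best); with a replicate block the chromosome 12 median was -0.4509, Cmpk2 was at 1.98, Rsad2 at 0.82, and 9794 loci were called against 9387. Calls of Ndor1, Ctps, Ddx60, Fam96b, Gm16372, Grhl1, Id2, Ifit3, Mms19, Tk2 and Tyk2 changed under at least 1 alternative. Counted apart from these gene calls, 11 of the summary values moved by more than the limits set for them. These were the neighbour count with at least 10 counts in every sample and, for the rest, chromosome 12 medians. The limit for those medians was the small SD between the Yme1l-/- cultures, and all stayed below 0. The other 135 values kept their direction and their side of the threshold, or moved by less than their limits.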
